A study of Homo sapiens with 2 samples.

Results

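Keratin and keratin associated genes were examined in a GATA1 ChIP-on-chip experiment in Meg-01, a human leukemia line of megakaryocytic type that was left untreated. They are genes of skin, hair and other epithelia, and they were taken as a contrast to genes of the blood lineages. Members were all gene symbols on the arrays that start with KRT or KRTAP followed by a digit, a rule on names that uses no measured value. There were 76 such symbols of 17279 on the arrays, and all 76 lay on the chIP2 array, which holds 8885 genes. DNA pulled down with an antibody against GATA1 (C-20, the IP) was labeled with Cy5 and DNA pulled down with normal goat IgG was labeled with Cy3. Both came from untreated parental cells, with no knockdown, drug or second line, and they were hybridized together. The chIP1 and chIP2 arrays hold different probes, so every probe was measured in 1 hybridization. There was no replicate and no dye swap, no test between samples could be run, and no value below has an error between samples.

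Keratins form the intermediate filaments of epithelial cells. Type I keratins are acidic, type II keratins are neutral to basic, and a filament needs a partner of each type. The genes lie in clusters, with type II keratins and the type I keratin KRT18 on chromosome 12 and the other type I keratins on chromosome 17. Keratin associated proteins (KRTAP) embed the keratin filaments of the hair shaft and are grouped as sulfur-rich or glycine-tyrosine-rich. GATA1 binds GATA sequences and is known for its part in red cell and platelet development.

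The value of a probe was log2(IP/IgG), with the median of the array set to 0, so that 1 is 2-fold toward the IP and -1 is 2-fold toward IgG. Probes were averaged in windows of 3 neighbors. Windows whose mean reached 1 or more were called enriched (the IP side), and those at -1 or less were called IgG-side. The value of a gene is its highest window. The 76 genes comprised 17 type I keratins, 15 type II keratins, 28 sulfur-rich KRTAP genes and 16 glycine-tyrosine-rich KRTAP genes. A window was available for 73 of them. The other 3 had too few neighboring probes: KRT14 (4 probes, mean 0.59), KRT17 (5 probes, mean 0.07) and KRTAP10-5 (1 probe, 0.40). The 73 genes held 1440 distinct windows, of which 73 belonged to more than 1 member, and 26 genes shared a window with another member. The median number of windows was 22 per gene, as for all genes of the array.

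At 2-fold over windows of 3 probes, keratin genes passed on the IP side about as often as other genes did, and on the IgG side more often. An enriched window was found in 40 of 73 keratin genes (54.8%), beside 54.9% of all 8758 genes with a window on the same array. An IgG-side window was found in 52 of 73 (71.2%), beside 50.5% of all genes. Both kinds were found in 32 genes, only the enriched kind in 8, only the IgG-side kind in 20 and neither in 13. The median highest window was 1.04, beside 1.06 over all genes, and the median lowest window was -1.26, beside -1.01. A gene value is the highest of many windows, which is why more than 50% of all genes pass. The comparison on the IP side depends on the call rule. The share of keratin genes was 69.9% at 1.5-fold (all genes 83.4%), 69.7% over single probes (84.5%) and 65.8% by the error model of the scanner software (83.9%), below that of all genes in each case. On the IgG side the same rules gave 86.3% (all genes 76.4%), 85.5% (79.2%) and 80.8% (77.4%). Among genes with at least 10 windows, 67.2% of 58 keratin genes and 57.9% of all genes had an enriched window, and 81.0% and 53.9% had an IgG-side window.

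Counted by window, the keratin loci lay toward IgG. Of the 1440 windows, 96 were enriched (6.67%, beside 7.26% of all windows of the array) and 254 were IgG-side (17.6%, beside 9.59%). The enriched ones were thus 27.4% of those past 2-fold (exact binomial 95% interval 22.8 to 32.4, which treats overlapping windows as separate counts and covers counting only), beside 43.1% over the array. The median window was -0.22 in keratin genes and 0.02 over the array. Averaged over every probe annotated to it, a gene lay above 0 in 21 of 76 cases and below 0 in 55. The count of enriched genes depends on the background correction: with normexp on the uncorrected signals it was 3 of 73 (4.11%, beside 30.7% of all genes), that of IgG-side genes was 27 (37%, beside 22.5%), and the IP to IgG split of windows was 4 to 67.

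**Figure D1:**
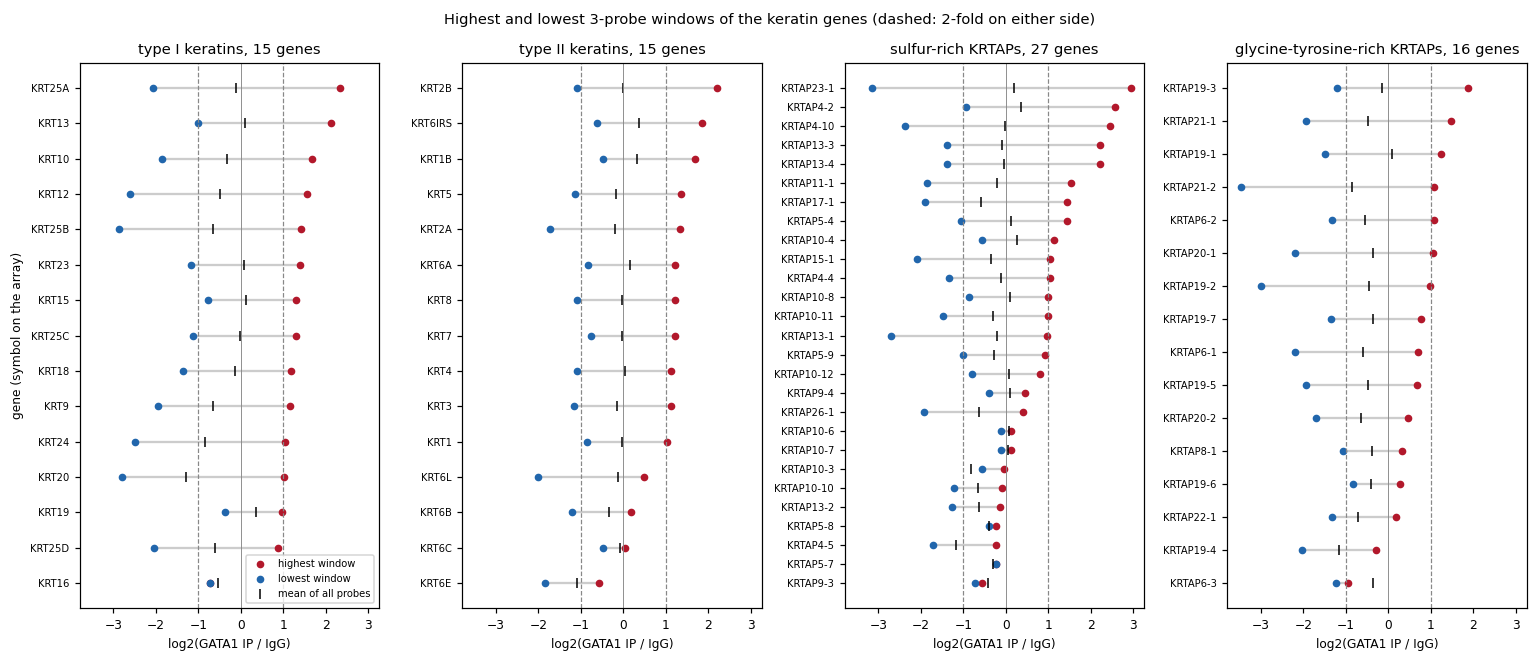
Highest window (red), lowest window (blue) and mean of all probes (black tick) of the 73 keratin genes with a window, as log2(GATA1 IP/IgG), in 4 panels by class; dashed lines mark 2-fold on either side. Highest windows run from -0.96 to 2.94, and most black ticks lie left of 0.

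Type I keratins had both the highest and the lowest windows among the keratins proper. An enriched window was found in 12 of 15 (80.0%, all genes 54.9%). An IgG-side window was also found in 12 of 15 (80.0%, all genes 50.5%), and 11 genes had both. By window, 7.40% were enriched and 25% were IgG-side, beside 7.26% and 9.59% over the array. The median number of windows was 29 per gene, beside 22 for all genes of the array. The highest type I value belonged to KRT25A (current symbol KRT25), a keratin of the inner root sheath of the hair follicle. Its 3 probes read 1.89, 2.77 and 2.36, with a mean of 2.34, and the center probe lay -79 bp from the transcription start, where negative values are upstream. All 4 of its enriched windows lay in 1 run, with gaps of at most 1000 bp. Its windows further into the gene were on the other side, with a lowest mean of -2.06 at 1052 bp, so 4 enriched and 4 IgG-side windows lay in the same locus. KRT13, a keratin of internal stratified epithelia, came next with 0.60, 2.00 and 3.80 (mean 2.13) at -5211 bp, far from its start. KRT10, the partner of KRT1 in the upper epidermis, reached 1.69 at 5130 bp. The same gene had 18 IgG-side windows of 56, 14 of them in 1 run of windows no more than 1000 bp apart.

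Several type I keratins lay mostly on the IgG side. KRT20, a keratin of intestinal epithelium, had a mean over all probes of -1.28, the lowest of the 76 genes, and 14 IgG-side windows of 24. Its lowest window was -2.80 at -1611 bp, and its single enriched window had a mean of 1.01. In the lowest window 2 of 3 probes, and in the highest 1, were not well above background in both channels, and with such probes left out its highest window was 0.11, so the enriched call was lost. KRT24 had 18 IgG-side windows of 32 and a lowest window of -2.49 at -343 bp. KRT12, the keratin of the corneal epithelium, held a run of 12 IgG-side windows with a lowest mean of -2.61, and its highest window of 1.56 rested on a single probe at 3.74 between neighbors at 1.53 and -0.59. KRT25B (current KRT26) reached -2.87, where 1 probe read -5.27. KRT23 had 5 enriched windows in 1 run (highest 1.40), and KRT15, a basal layer keratin, had 3 (highest 1.31). KRT18 and KRT19 are keratins of simple epithelia, and the medians of their windows within 500 bp of the start were 0.37 and -0.21. KRT18 reached 1.19 at -1516 bp and -1.35 at -2637 bp. KRT19 was the only keratin with over 20 windows and none past 2-fold on either side, with a range of -0.38 to 0.98 over 24 windows. KRT16, induced in wounded skin, had only 1 window, at -0.73.

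Type II keratins were near balance by window, and their other measures differed in direction. An enriched window was found in 11 of 15 (73.3%, all genes 54.9%) and an IgG-side window in 9 of 15 (60%, all genes 50.5%). By window, 6.81% were enriched and 5.76% IgG-side, beside 7.26% and 9.59% over the array. This puts 54.2% of those past 2-fold on the IP side (exact binomial 95% interval 39.2 to 68.6), beside 43.1% over the array. The mean over all probes was above 0 in 4 of the 15 genes and below 0 in 11. The median of windows within 500 bp of the start was above 0 in 9 of 13 genes. KRT2B (current KRT76), an oral keratin, had the highest value, with 0.56, 3.48 and 2.56 (mean 2.20) at -3388 bp. The IgG signal of its center probe was only 20 units, beside 219 for the IP. A probe of this window was not well above background in both channels, and with such probes left out KRT2B reached 1.20, below KRT6IRS and KRT1B. KRT6IRS (current KRT71), of the inner root sheath, reached 1.86 at -4647 bp through 1 probe at 3.57. KRT1B (current KRT77) reached 1.70 at -582 bp, with 0.93, 3.03 and 1.13, and had 3 enriched windows in 1 run and no IgG-side window. The familiar members of the class lay just past 2-fold. KRT5, the basal layer partner of KRT14, reached 1.35 and KRT1 reached 1.03. KRT8, the simple epithelial partner of KRT18, reached 1.23 through 2 probes at 2.38 and 2.37 beside the other at -1.05, and KRT7 reached 1.22. The lowest highest window of the class was -0.58, in KRT6E, which had only 4 windows. KRT6A, KRT6B, KRT6C and KRT6E are copies of much alike sequence, and hybridization between them was not tested.

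The sulfur-rich KRTAP genes held the highest value of all. KRTAP23-1 had probes at 2.27, 3.58 and 2.97 (mean 2.94) at -902 bp, above 99.2% of genes on the array, and 7 enriched windows in 1 run. At -3600 bp the same gene had a window of -3.14, among the 5 lowest of the keratin genes. Each of these windows held 1 probe not well above background in both channels, and with such probes left out the highest was 2.57. KRTAP4-2 reached 2.58 at -596 bp and KRTAP4-10 (current KRTAP4-1) reached 2.45 at -1809 bp. In both, the IgG signal of the center probe was 20 units, beside IP signals of 162 and 156. The KRTAP4-2 window held 2 probes not well above background in both channels, and without such probes its highest window was 1.31, while that of KRTAP4-10 was 2.45. KRTAP13-3 and KRTAP13-4 share their highest window, with probes at 0.44, 2.98 and 3.21 (mean 2.21), which lies at -417 bp from the first and -3946 bp from the second, so it is 1 measurement and not 2. KRTAP11-1 (1.54) and KRTAP5-4 (1.45) each had 3 enriched windows in 1 run, but the enriched call of KRTAP5-4 was lost (0.91) when probes not well above background in both channels were left out. Together 11 of 27 genes had an enriched window (40.7%, all genes 54.9%) and 16 of 27 an IgG-side window (59.3%, all genes 50.5%). By window, 7.77% were enriched and 18.0% IgG-side, beside 7.26% and 9.59% over the array. The median number of windows was 14 per gene, beside 22 for all genes of the array. The lowest highest window was -0.56, in KRTAP9-3, with 2 windows.

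Of the 4 classes, the glycine-tyrosine-rich KRTAP genes had the largest share of genes with an IgG-side window and the lowest median window (-0.46). An IgG-side window was found in 15 of 16 (93.8%, all genes 50.5%). An enriched window was found in 6 of 16 (37.5%, all genes 54.9%), and all 6 also had an IgG-side window. By window, 3.75% were enriched and 23.2% IgG-side, beside 7.26% and 9.59% over the array. The IgG-side share of windows was higher in type I keratins, at 25%. The enriched ones were 13.9% of those past 2-fold, beside 43.1% over the array. The median highest window was 0.72, beside 1.06 over all genes, with a median of 19 windows per gene, beside 22. KRTAP19-3 reached 1.87, with 1.58, 1.83 and 2.21 at -4284 bp (1.28 without probes not well above background in both channels). It had 3 enriched windows in 1 run. KRTAP21-1 reached 1.47 and KRTAP19-1 reached 1.24. On the other side, KRTAP21-2 had the lowest window of the 76 genes, with -1.95, -4.80 and -3.67 (mean -3.47) at -6112 bp, and KRTAP19-2 reached -2.99. In KRTAP19-4, 11 of 18 windows were IgG-side in 1 run. The lowest highest window was -0.96, in KRTAP6-3, with 2 windows.

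The direction differed between the gene clusters. Positions are those of the array annotation, whose genome build is not given in the sources used here. On chromosome 12, 16 genes between 50908640 and 51631475 had 50.9% of windows past 2-fold on the IP side. On chromosome 17, 23 genes between 36110973 and 37039139 had 25.6%, and 25.3% of all windows there were IgG-side. On chromosome 21, 24 KRTAP genes between 30612214 and 31180847 had 18.5%, and 23 of the 24 had an IgG-side window (95.8%, all genes 50.5%). The second chromosome 21 group, the KRTAP10 genes between 44812676 and 44941238, was quiet on both sides: 1 of 8 genes had an enriched window and 2 of 8 an IgG-side window, over 3.08% and 6.15% of windows. These genes had few windows, and their windows were brighter, with a median intensity percentile of 70.7 on the array, beside 21.2 for all keratin windows.

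**Figure D2:**
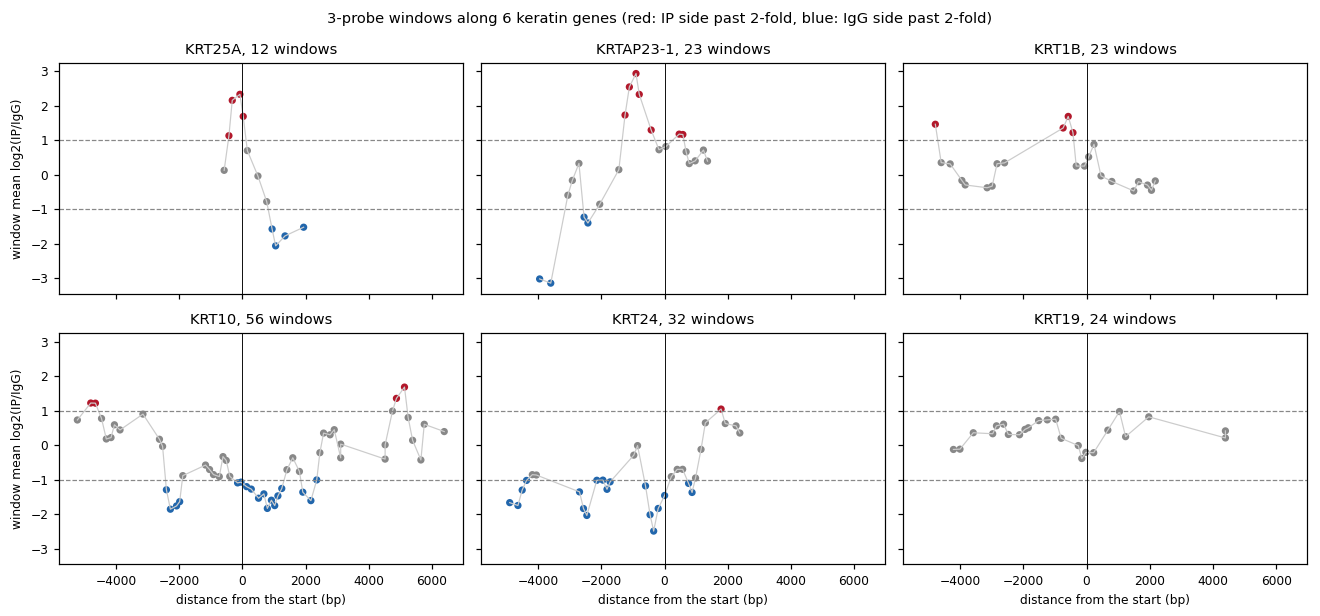
Mean log2(IP/IgG) of each 3-probe window (vertical axis) against the distance of its center from the transcription start in bp (horizontal axis) for 6 keratin genes; red points are past 2-fold on the IP side and blue points on the IgG side. KRT25A and KRTAP23-1 pass from 2.34 and 2.94 near or upstream of the start to -2.06 and -3.14 elsewhere, KRT1B has no blue point, KRT10 and KRT24 are mostly below 0 around the start, and KRT19 stays within 2-fold.

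Near transcription starts, where most of the array leaned toward the IP, KRTAP genes leaned toward IgG and keratins proper lay near 0. The median window within 500 bp of a start was 0.24 over the array, -0.01 in keratins and -0.45 in KRTAP genes. Within 500 bp of a start, 12 of 241 keratin windows were enriched (4.98%) and 34 were IgG-side (14.1%), beside 9.56% and 4.20% of all windows of the array at that distance. Within 1000 bp the keratin shares were 5.65% and 15.7%, and those of the array were 8.52% and 5.19%. Beyond 1000 bp they were 7.20% and 18.6%, beside 6.58% and 11.9%. The gene counts that follow have no matching count over all genes of the array. They cannot be read as particular to keratin genes. The highest window of the 40 genes with an enriched window lay within 1000 bp of the start in 11 and within 500 bp in 3. Of 59 keratin genes with a window within 500 bp, 7 had an enriched one there and 23 an IgG-side one, and no gene had both. The median of these near-start windows was above 0 in 19 genes and below 0 in 40, and by class above 0 in 9 of 13 type II keratins, 4 of 14 type I keratins, 5 of 19 sulfur-rich and 1 of 13 glycine-tyrosine-rich KRTAP genes. It was highest in KRT25A (1.42) and KRTAP23-1 (1.00) and lowest in KRT24 (-1.65), KRTAP4-5 (-1.38), KRTAP22-1 (-1.12), KRT10 (-1.09) and KRT12 (-1.02).

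**Figure D3:**
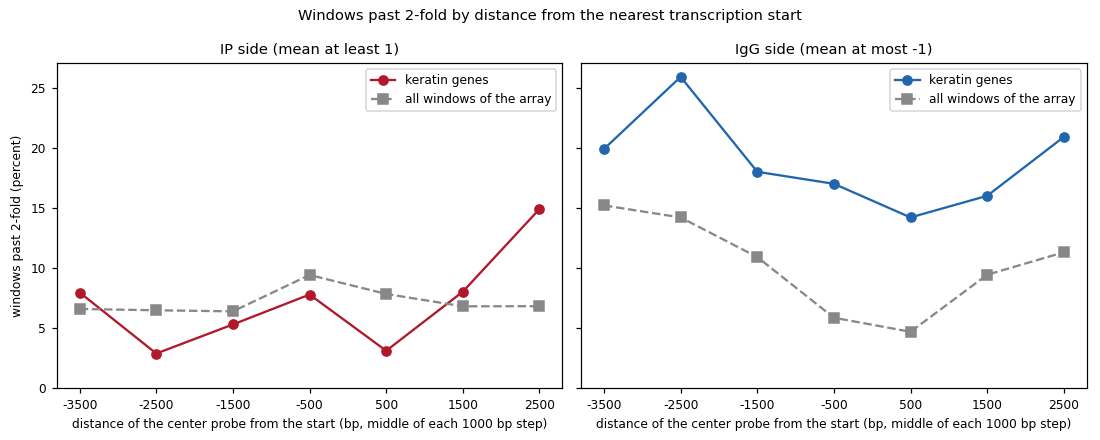
Percent of windows past 2-fold on the IP side (left) and the IgG side (right) against the distance of the center probe from the nearest transcription start in steps of 1000 bp, for keratin genes (solid) and all windows of the array (dashed). Over all windows the IgG side falls to 4.68% just downstream of the start, while in keratin genes it is 14.2% there.

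RefSeq promoters of GRCh38.p14, from 250 bases before to 50 after the start, were at hand for 54 of the 76 genes. The letters searched were GATA with A or T before and A or G after, on both strands, and a match counts as 6 letters. At least 1 was found in 29 of the 54 (53.7%), beside 25.5% of all 27303 promoters of this length. The keratin promoters are also richer in A and T, with a median GC content of 43.5% beside 58.3%, and the part of base composition in the count was not tested. A match was found in 12 of 17 keratin promoters and in 17 of 37 KRTAP promoters. Set beside the array values, an enriched window was found in 15 of 28 genes with a match (53.6%) and in 14 of 25 without (56.0%). An IgG-side window was found in 82.1% and 80.0%. These windows could lie far from the start, while the letters were searched only near it. Within 500 bp of the start, an enriched window was found in 3 of 23 genes with a match and in 2 of 23 without. An IgG-side window was found there in 11 and 10. The starts on the array can differ from those of GRCh38.p14. Promoters of 5 genes are shown because they span the range of near-start values, with GATA matches in capitals. KRT25A (chr17:40755282-40755581, minus strand) has the near-start enriched window and 1 match, whose first base is at -196. KRTAP23-1 (chr21:30348557-30348856, minus strand) has the highest window of all and no match. KRTAP4-10 (chr17:41184862-41185161, minus strand) has 3 matches, at -109, -99 and -89, the most of the 54, and a near-start median of -0.06. KRT10 (chr17:40822565-40822864, minus strand) has 1 match at -128 and lies on the IgG side. KRT24 (chr17:40703703-40704002, minus strand) has the lowest near-start median and no match.
KRT25A: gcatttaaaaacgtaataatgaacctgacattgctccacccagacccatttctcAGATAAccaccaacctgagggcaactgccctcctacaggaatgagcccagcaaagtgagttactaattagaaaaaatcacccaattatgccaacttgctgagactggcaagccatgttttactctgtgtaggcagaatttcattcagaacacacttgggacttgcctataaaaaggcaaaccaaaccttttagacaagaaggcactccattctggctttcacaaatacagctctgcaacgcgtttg
KRTAP23-1: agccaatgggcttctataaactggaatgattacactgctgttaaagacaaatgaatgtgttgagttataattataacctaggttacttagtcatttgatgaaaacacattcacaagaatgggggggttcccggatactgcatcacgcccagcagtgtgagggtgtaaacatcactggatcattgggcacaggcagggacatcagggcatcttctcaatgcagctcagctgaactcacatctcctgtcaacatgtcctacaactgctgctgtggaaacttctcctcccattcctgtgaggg
KRTAP4-10: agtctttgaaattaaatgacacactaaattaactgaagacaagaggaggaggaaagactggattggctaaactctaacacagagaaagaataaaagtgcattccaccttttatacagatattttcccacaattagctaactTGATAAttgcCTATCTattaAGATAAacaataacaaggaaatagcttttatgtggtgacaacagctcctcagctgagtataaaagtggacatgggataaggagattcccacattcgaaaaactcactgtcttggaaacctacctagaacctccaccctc
KRT10: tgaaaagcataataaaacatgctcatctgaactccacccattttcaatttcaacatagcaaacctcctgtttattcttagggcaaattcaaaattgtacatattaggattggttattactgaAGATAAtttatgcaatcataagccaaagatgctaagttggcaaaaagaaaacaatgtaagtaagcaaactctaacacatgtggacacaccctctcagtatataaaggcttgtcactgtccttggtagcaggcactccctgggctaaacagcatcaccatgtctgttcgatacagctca
KRT24: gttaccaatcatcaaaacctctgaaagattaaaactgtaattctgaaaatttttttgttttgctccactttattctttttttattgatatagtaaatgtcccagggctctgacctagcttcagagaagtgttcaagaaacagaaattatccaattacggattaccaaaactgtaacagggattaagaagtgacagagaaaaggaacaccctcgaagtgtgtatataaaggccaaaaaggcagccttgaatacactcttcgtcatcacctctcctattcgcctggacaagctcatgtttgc

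Keratin windows were dim. Ranked by mean log intensity of both channels, 54.7% of them fell in the dimmest 25% of the array and 7.01% in the brightest 25%. Over the whole array, dim windows passed 2-fold more often on both sides (11.6% enriched and 20.2% IgG-side in the dimmest 25%, 5.43% and 1.75% in the brightest 25%). In the dimmest 25% the keratin windows were 8.76% enriched and 22.3% IgG-side. In the next to brightest 25%, 1.02% were enriched, beside 5.07% of all windows. In the brightest 25%, 0 of 101 keratin windows were enriched, beside 5.43% of all windows, while 6.93% of the keratin windows were IgG-side. The 0 allows a share of up to 2.97% for counting error only, with overlapping windows treated as separate counts. The highest window of 31 of the 40 genes with an enriched window lay below the 25th percentile of intensity, and none lay above the 75th. In 7 of the 40, all 3 probes of the window were at least 2-fold, and in 15 the enriched window was the only one. On the IgG side, all 3 probes were at least 2-fold in 27 of the 52 genes, and 31 had at least 3 windows in 1 run. Matching gene counts over the whole array were not at hand. The part of dim signal in these ratios was not tested.

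**Figure D4:**
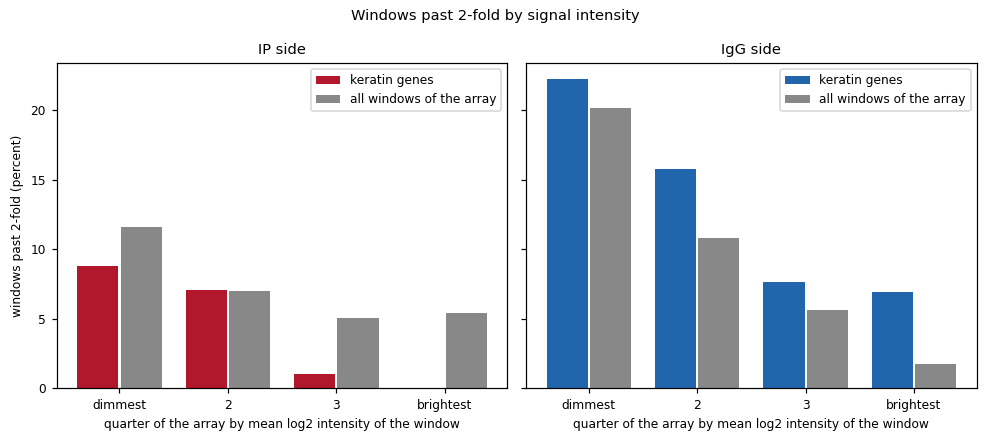
Percent of windows past 2-fold on the IP side (left) and the IgG side (right) in 4 equal parts of the array by mean log2 intensity, for keratin genes (colored) and all windows of the array (gray). On the IP side the keratin bars are at 1.02% and 0 in the 2 brighter parts, and on the IgG side the keratin bar is above the gray bar in all 4.

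Beside a list of 34 blood genes with a window, the keratin genes stood lower on the IP side and higher on the IgG side. An enriched window was found in 25 of the 34 blood genes (73.5%) and an IgG-side window in 11 (32.4%), over both arrays, on which 57.1% and 52.9% of all genes had one. Of the blood windows past 2-fold, 64.9% were enriched, beside 27.4% in keratin genes. Within 500 bp of a start, 18.4% of 152 blood windows were enriched and 1 was IgG-side, beside 12 and 34 of 241 keratin windows. The highest blood values were those of VWF (2.51), the von Willebrand factor of platelets, and FLI1 (2.24), a transcription factor of megakaryocytes. Both also had IgG-side windows, with lowest means of -1.45 and -2.2. The lowest blood windows were those of SELP (-2.39), FLI1 and PPBP (-2.04). These blood genes were named after their values were seen. The blood windows were brighter, with a median intensity percentile of 65.7, beside 21.2, and the part of this in the difference was not tested. Other epithelial genes (40, such as desmosome and cornified envelope genes) had an IgG-side window in 75% and an enriched window in 62.5%, and 37.4% of their windows past 2-fold were on the IP side. By window they were less often IgG-side than keratin genes, at 13.4% beside 17.6%, and within 500 bp of a start at 6.34% beside 14.1%, with a median of 0.05 there beside -0.25. The 15 other intermediate filament genes, which include vimentin and the lamins, had an enriched window in 14 (93.3%) and an IgG-side window in 7, and 64.3% of windows past 2-fold were enriched. The median number of windows was 27.5 in blood genes, 29 in other epithelial genes and 30 in other intermediate filament genes, beside 22 in keratin genes. The part of this in the gene shares was not tested.

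**Figure D5:**
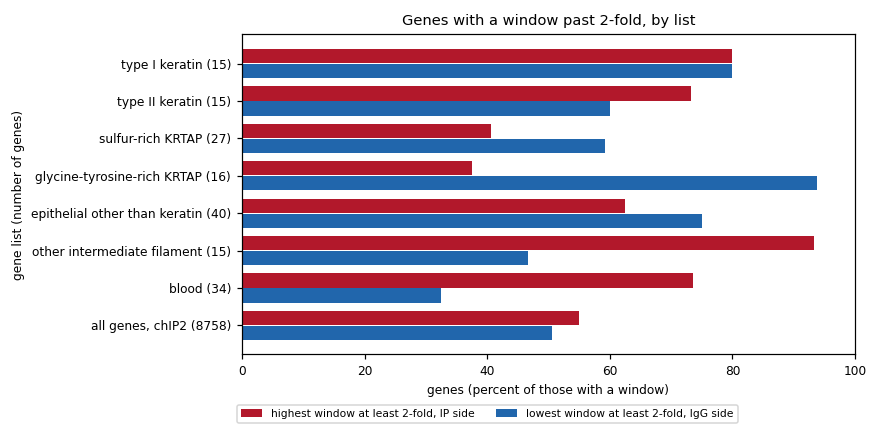
Percent of genes with a highest window of at least 2-fold on the IP side (red) and a lowest window of at least 2-fold on the IgG side (blue), for the 4 classes of keratin genes, 3 comparison lists and all genes of the chIP2 array, with the number of genes in brackets. The blue bar is longest for glycine-tyrosine-rich KRTAP genes (93.8%) and shortest for blood genes (32.4%).

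The spread between spots bears on these values. A bright control probe spotted 480 times on chIP2 had an SD of 0.044 on the log2 scale, while the kept probes of the array had an SD of 0.97, windows an SD of 0.76 and keratin windows an SD of 0.86. Raw signals were low, with medians of 544 (IP) and 440 (IgG) on chIP2, beside 340 and 303 for negative controls. Dim spots varied more: the 177 negative control spots that passed the same filter had an SD of 0.65. They were also not centered on 0. Their median log2(IP/IgG) was -1.19, past 2-fold on the IgG side, and that of the bright control probe was -0.39. Spots that cleared the background in no channel were left out by this filter, so -1.19 need not hold for all dim spots. The part of this offset in the keratin values was not tested. The SD values cover the spread between spots of 1 array only, and not the pull-down or the amplification.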

How the data were processed

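GATA1 IP DNA (Cy5) and IgG DNA (Cy3) of untreated Meg-01 cells were hybridized on a set of 2 promoter arrays, 1 hybridization each. Per the file headers, the authors used Agilent Feature Extraction 9.5.3.1 for the deposited processed intensity values: a spatial surface was subtracted, then a multiplicative detrend and a linear dye factor were applied. The deposited log10 ratio is IP over IgG of these signals, and the deposited p-value comes from the scanner error model within 1 array. The study itself called peaks with commercial software, which was not used here.

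From these, log2 of processed IP over processed IgG was computed with the array median at 0 (Python 3.11.15, pandas 2.3.3). Controls, non-uniform spots and probes that cleared the background in no channel were dropped (1636 of 1641 keratin probes kept). Windows held 3 probes, with neighbors within 1000 bp of the center. A run is a set of windows on 1 side with gaps of at most 1000 bp, and windows between them can fall short of 2-fold. No test was run, since there are no replicates. Symbols are those of the array, and 11 members have another current symbol. Named genes were the 10 members with the highest window, the 5 with the lowest, and the 3 highest and 1 lowest highest window of each class. Textbook keratins and genes with at least 3 enriched windows in 1 run were also named. Others were named after their values were seen. Members and lists were chosen with earlier results of these data known. The steps were run on simulated data with planted shifts and independent noise narrower than the spread of the real probes. That checks the code only and gives no error rate for these data. Alternatives were loess (span 0.3) and normexp (offset 50) in limma 3.58.1, the series value table, other filters, window sizes and thresholds, the scanner error model, removal of the distance trend, and added hair keratin symbols.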

Additional observations from a re-analysis of the deposited data

How the results depend on the processing

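The number of keratin genes with an enriched window (40) stayed within 1.5 times under 9 of 12 alternatives, but in 3 of these the share over all genes rose more: 83.4% of all genes at 1.5-fold, 84.5% over single probes and 83.9% by the scanner error model, beside 69.9%, 69.7% and 65.8% of keratin genes. It was 3 with normexp background correction (4.11%, all genes 30.7%). With windows of 5 probes it was 19 of 66 (28.8%, all genes 32.0%), and at 3-fold it was 12 (16.4%, all genes 19.4%). The number with an IgG-side window (52) was 27 (37.0%) both with normexp and at 3-fold, beside 22.5% and 21.1% of all genes. It stayed within 1.5 times under the other 10 alternatives. The median highest window (1.04) was 1.12 with loess, 0.31 with normexp, 1.81 for single probes, 0.68 with windows of 5 probes and 1.10 with the distance trend removed. The enriched share of windows past the threshold (27.4%, array 43.1%) stayed below 50% throughout, but so did the array share except with normexp. In keratin genes it was 35.7% with loess (array 48.2%), 5.63% with normexp (array 55.5%) and 20.1% with windows of 5 probes (array 39.9%). At 1.5-fold it was 32.9% (array 47.5%) and at 3-fold 20.8% (array 38.1%). With the distance trend removed it was 33.6% (array 47.4%). Of the 40 enriched genes, loess kept 40 and normexp kept 2, KRT18 (1.11) and KRT1B (1.06), and normexp added KRTAP10-8 (1.02). With windows of 5 probes KRT18 read 0.96 and KRT1B 0.99, so both lost the call there. Of the 27 named genes with an enriched window, 0 kept the call under every alternative compared gene by gene. The highest windows of 5 of the 40 fell below 0 with normexp: KRT20 (-0.10), KRTAP19-3 (-0.01), KRTAP21-2 (-0.25), KRTAP17-1 (-0.14) and KRTAP6-2 (-0.20). With both channels well above background 37 of the 40 kept the call, and KRT20 (0.11), KRTAP5-4 (0.91) and KRTAP17-1 (0.31) lost it. The cause was not tested. No paired analysis was possible because chIP1 and chIP2 carry different probes, so that no pair of samples measures the same thing. Dim control spots varied more within the array, and 54.7% of keratin windows lay in the dimmest 25% of the array. The part of dim signal in these changes was not tested.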

Other observations

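The array also carries 15 hair keratin genes under older symbols that start with KRTHA or KRTHB, which the choice of members left out. An IgG-side window was found in all 15 (all genes of the array 50.5%) and an enriched window in 10 (66.7%, all genes 54.9%). By window, 8.74% were enriched and 24.6% were IgG-side, so the enriched ones were 26.2% of those past 2-fold, beside 27.4% in the keratin genes. Their highest windows reached 3.03, above the 2.94 of KRTAP23-1. With them included, 50 of 88 genes had an enriched window (56.8%, all genes 54.9%) and 67 of 88 an IgG-side window (76.1%, all genes 50.5%).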
